A study of Mus musculus with 12 samples.

Results

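The genes described here write, recruit and read methylation of lysine 9 on histone H3 (H3K9), or keep the chromatin that carries it. They were chosen by name for those roles, with earlier results of these data known. All 10 were found among the 22462 genes of the deposited count table: Trim28, Setdb1, Ehmt1, Ehmt2, Suv39h1, Suv39h2, Cbx1, Cbx3, Cbx5 and Atrx. All 10 also passed the filter on low values, which kept 11750 genes. Ribosome profiling measured mouse embryonic stem cells (ESCs), held in the naive state by LIF and the 2i inhibitors PD0325901 and CHIR99021 in Knockout DMEM with serum, and epiblast-like cells (EpiLCs), collected about 56 h after LIF and 2i were taken away. For the differentiation the study's methods name a V6.5 ESC line that carries a miR-290-mCherry and a miR-302-GFP reporter. The labels themselves name neither a line nor a genetic change. Each cell type gave 3 libraries of ribosome protected footprints (RPFs), the mRNA pieces that ribosomes shield from nuclease, and 3 of total RNA, 12 libraries in all. The question was whether the mRNA, or its use by ribosomes, differs between the cell types.

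Methylated H3K9 marks silent chromatin, and in early embryonic cells it also helps to hold retroviral repeats silent. TRIM28 is brought to DNA by zinc finger proteins and recruits the methyltransferase SETDB1, whereas SUV39H1 and SUV39H2 methylate pericentromeric chromatin and EHMT1 (GLP) and EHMT2 (G9a) act as a pair on euchromatic genes. The heterochromatin proteins HP1β, HP1γ and HP1α, encoded by Cbx1, Cbx3 and Cbx5, bind the methylated tail, and the remodeller ATRX deposits the histone variant H3.3 at repeats with DAXX.

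Suv39h1 rose most of the 10, by 2.82-fold in total RNA and 3.94-fold in RPF. Trim28, Setdb1, Ehmt2 and Atrx fell in both assays, and Ehmt1, Suv39h2, Cbx1 and Cbx5 rose in both. The change of Cbx3 did not pass the test in either assay. Translational efficiency (TE), the RPF of a gene divided by its total RNA, did not change past the test in any member.

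Most footprints from Cbx3 cannot be placed, and this touches every value of that gene. Only reads with a single mapping position had been kept, and the counted footprints were 26 to 32 nt long. Of the 507 windows of 26 nt that start in the counted coding sequence of Cbx3 (chr6:51475252-51482606, mm10, plus strand), 10.1% had no exact copy elsewhere in the annotated transcripts. The median over tested genes was 99.7%, and 1.09% of tested genes had a share as low as that of Cbx3 or lower. At 32 nt the share of Cbx3 was 12.4% and at 50 nt, the length of a whole read, 19.5%.

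The copies at 26 nt lay in 24 other genes, 21 of which are annotated as pseudogenes. Cbx3-ps6 (chr14:73955000-73955551, minus strand) held 456 of the windows and Cbx3-ps7 (chr1:58646688-58647239, plus strand) held 447. Both are processed pseudogenes, intron-free copies of an mRNA in the genome. The 26-nt window of Cbx3 with the most copies (chr6:51478515-51478540, in coding exon sequence) had 15 other places, and the first window along the transcript with no copy (chr6:51481758-51481783, likewise coding) differed by 1 base from both pseudogenes. They are printed below 5′ to 3′ from the Gencode M21 transcripts to show how little separates gene from copy, with the differing base of the pseudogenes in capitals.
Cbx3, copied window: ctggtaaagaaaaagatggtacaaaa
Cbx3, window with no copy: accctgaacgaataatcggcgccaca
Cbx3-ps6, same place: accctgaacgaataatcggcgccacG
Cbx3-ps7, same place: accctgaacgaataatcggcgccacG

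The other HP1 genes were far less affected, with 88.4% of windows uncopied at 26 nt in Cbx1 and 91.9% in Cbx5. Setdb1 had 92.3%, and 297 of its 299 copied windows lay in the non-coding RNA Gm4349. The remaining 6 members had between 98.3% (Ehmt2) and 99.8% (Atrx). Counting used strand, and the counted sequence of no member overlapped that of a second gene on its own strand. The levels of Cbx3 given here thus leave out reads from copied windows. Its changes between cell types compare the same windows only where read lengths were alike in the libraries, which was not tested.

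**Figure D1:**
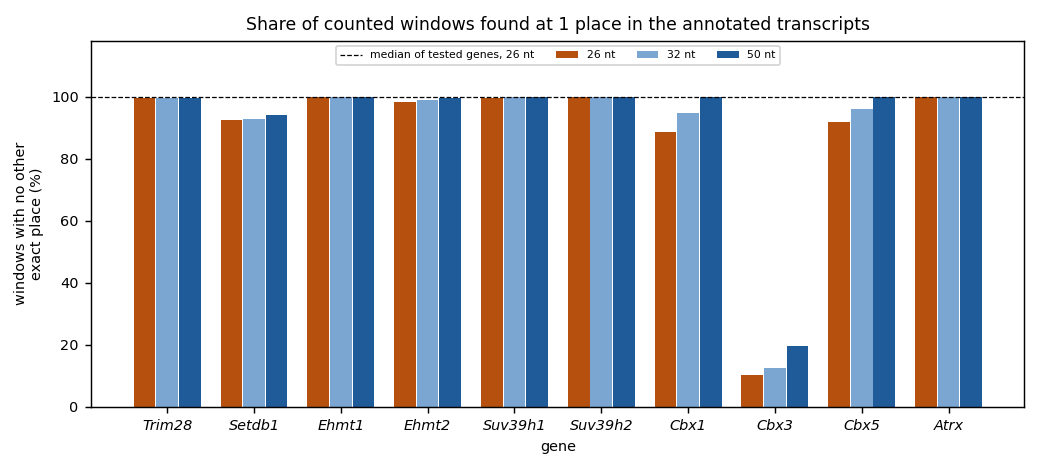
Bars show, for each gene (x axis), the percent of counted windows of 26, 32 and 50 nt that have no other exact place in the annotated transcripts (y axis), and the dashed line is the median of tested genes at 26 nt. Cbx3 stands at 10.1% to 19.5% and every other member at 88.4% or more.

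Total counts were 2681439 to 14655015 per library and were lowest in an EpiLC RPF library. All 7 naive markers fell and all 5 formative and primed markers rose in both assays. Of the genes listed as shared by both states, Pou5f1 and Sox2 also fell in both assays, with log2 RPF changes of -0.50 ± 0.06 and -2.96 ± 0.12. In these bulk samples, fewer cells of a type and less RNA per cell cannot be told apart. Of 6 fibroblast markers, 2 (Col1a1 and Thy1) were abundant enough to test and both rose, with Postn at 0 in all groups and Lum at 0 in all but EpiLC RPF. The summed level of the 6 was 6.15 to 7.16 CPM (reads of the gene per fixed number of reads in a library) in ESC RPF and 31.3 to 34.6 CPM in EpiLC RPF, and its part in the changes below was not tested. Of 3 neuroectoderm markers Pax6 and Sox1 were tested and both rose in RPF, Pax6 alone in total RNA, and their sum stayed at or below 28.9 CPM in every library. Primitive endoderm markers summed to at most 9.89 CPM, with none of the 2 tested of 5 passing. Mesoderm and streak markers summed to at most 18.8 CPM, and the 1 tested of 4, Eomes, fell.

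In both total RNA and RPF, 5 of 10 members rose and 4 fell at an adjusted p below 0.05 (limma, Benjamini-Hochberg over 11750 genes). Over all tested genes, 34.6% rose and 30.7% fell in total RNA, and 31.1% rose and 28.7% fell in RPF, so that such calls were common (65.4% and 59.8% of genes). The median log2 change of the members was 0.09 in total RNA, where that of all genes was 0.03, and 0.22 in RPF, where that of all genes was 0.01. Suv39h1 alone also passed a limit of 1 on the log2 scale, which 14.6% of genes rose past in total RNA and 15.4% in RPF. No member fell past it, where 9.70% of genes did in total RNA and 10.6% in RPF. The ESC and EpiLC libraries did not overlap for 9 members in each assay, against 70.3% of all tested genes in total RNA and 63.1% in RPF. The study calls its replicates biological, and the p-values measure the spread between these libraries.

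TRIM28 is the corepressor that brings SETDB1 to silenced repeats, and its mRNA had the highest level of the set per counted length. The Trim28 gene (chr7:13024764-13030862, plus strand) gave 2753, 2719 and 2791 CPM in the ESC total RNA libraries and 1869, 1741 and 1921 CPM in those of EpiLCs. In RPF its values were 3456, 3701 and 3913 CPM in ESCs and 2409, 2522 and 2304 CPM in EpiLCs. Every EpiLC library lay below every ESC library in both assays. The log2 change of Trim28 was -0.58 ± 0.05 (SE) in total RNA (adjusted p = 4.65e-11) and -0.62 ± 0.05 in RPF (adjusted p = 7.52e-11), a fall to 0.650 of the ESC level in RPF.

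SETDB1 trimethylates H3K9 where TRIM28 binds. Setdb1 (chr3:95324073-95356148, minus strand) stood at 306, 300.0 and 315 CPM in ESC total RNA and at 239, 239 and 255 CPM in EpiLC total RNA. Its RPF values were 284, 252 and 291 CPM in ESCs and 170.5, 191 and 204 CPM in EpiLCs. The cell types did not overlap in either assay. On the log2 scale Setdb1 changed by -0.33 ± 0.06 in total RNA (adjusted p = 5.50e-05) and -0.56 ± 0.08 in RPF (adjusted p = 7.78e-07).

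EHMT1 and EHMT2 form the enzyme that mono- and dimethylates H3K9 in euchromatin, and their genes moved in opposite directions. Ehmt1 (chr2:24791950-24887045, minus strand) had 178, 202 and 192 CPM in ESC total RNA and 274, 278 and 288 CPM in EpiLC total RNA. For Ehmt2 (chr17:34899019-34913820, plus strand) these values were 345, 340.2 and 368 CPM in ESCs and 258, 254 and 258 CPM in EpiLCs. Ehmt1 was thus higher, and Ehmt2 lower, in every EpiLC library than in any ESC library. The log2 change was 0.55 ± 0.06 for Ehmt1 (adjusted p = 5.02e-08) and -0.45 ± 0.05 for Ehmt2 (adjusted p = 8.31e-08).

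The footprints of the pair followed the same order. Ehmt1 RPF was 151, 157 and 158 CPM in ESCs and 199.9, 238 and 243 CPM in EpiLCs. Ehmt2 RPF was 228, 215 and 231 CPM in ESCs and 142, 149.8 and 152 CPM in EpiLCs. Again no EpiLC library overlapped the ESC libraries. The RPF change was 0.54 ± 0.08 on the log2 scale for Ehmt1 (adjusted p = 2.44e-06) and -0.61 ± 0.07 for Ehmt2 (adjusted p = 7.13e-08).

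SUV39H1 and SUV39H2 are the trimethylases of pericentromeric heterochromatin. Suv39h1 (chrX:8062850-8072445, minus strand) was at 17.4, 20.6 and 16.2 CPM in ESC total RNA and at 47.9, 53.2 and 53.1 CPM in EpiLC total RNA. In RPF it was at 15.4, 16.4 and 13.6 CPM in ESCs and at 57.2, 52.1 and 63.1 CPM in EpiLCs. The lowest EpiLC library held more than the highest ESC library in both assays, with no overlap. The log2 change of Suv39h1 was 1.497 ± 0.11 in total RNA (adjusted p = 9.94e-12) and 1.98 ± 0.14 in RPF (adjusted p = 1.34e-11). These changes stood at the 90.4th and 92.4th percentile of all tested genes.

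Suv39h2 (chr2:3458623-3474901, minus strand) gave 46.2, 40.6 and 42.1 CPM in ESC total RNA and 52.5, 59.9 and 50.5 CPM in EpiLC total RNA. Its RPF values were 24.997, 23.4 and 20.6 CPM in ESCs and 34.2, 33.8 and 34.9 CPM in EpiLCs. EpiLC libraries were again higher throughout, by a smaller margin than for Suv39h1. Suv39h2 changed by a log2 value of 0.32 ± 0.09 in total RNA (adjusted p = 0.00303) and 0.61 ± 0.14 in RPF (adjusted p = 0.000576).

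HP1β and HP1α, which bind methylated H3K9 through their chromodomains, were encoded by genes that both rose. Cbx1 (chr11:96800853-96808223, plus strand) had 121, 115 and 123 CPM in ESC total RNA and 142, 157 and 145 CPM in EpiLC total RNA. In RPF Cbx1 had 243, 245 and 231 CPM in ESCs and 274, 277 and 297 CPM in EpiLCs. The ranges did not overlap, and the rise was the smallest among the members that passed. It was 0.30 ± 0.07 on the log2 scale in total RNA (adjusted p = 0.000318) and 0.25 ± 0.07 in RPF (adjusted p = 0.00236). Without EpiLC RPF replicate 3 the RPF change of Cbx1 was 0.17 and its adjusted p 0.0511, which did not pass.

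Cbx5 (chr15:103199641-103213163, minus strand) stood at 107, 113 and 94.6 CPM in ESC total RNA and at 144, 169 and 154 CPM in EpiLC total RNA. Its RPF values were 226, 221 and 219 CPM in ESCs and 272, 278 and 323 CPM in EpiLCs. All EpiLC libraries were above all ESC libraries. For Cbx5 the log2 change was 0.55 ± 0.08 in total RNA (adjusted p = 1.20e-06) and 0.40 ± 0.08 in RPF (adjusted p = 0.000116).

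For Cbx3, whose HP1γ is found in euchromatin as well as heterochromatin, the countable windows gave 20.9, 23.3 and 22.5 CPM in ESC total RNA and 19.7, 23.7 and 19.5 CPM in EpiLC total RNA. In RPF they gave 23.2, 30.6 and 30.9 CPM in ESCs and 30.5, 38.8 and 29.8 CPM in EpiLCs. The cell types overlapped in both assays, on 102 to 337 reads per library. The log2 change of Cbx3 was -0.11 ± 0.13 in total RNA (adjusted p = 0.453) and 0.19 ± 0.15 in RPF (adjusted p = 0.276). Without ESC RPF replicate 1 the RPF change of Cbx3 was 0.00594.

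ATRX is a chromatin remodeller of the SWI/SNF type, and the counted sequence of Atrx (chrX:105800175-105928507, minus strand) has 7451 bases, the most of the set. Atrx stood at 702, 678 and 699 CPM in ESC total RNA and at 520.0, 617 and 590.5 CPM in EpiLC total RNA. In RPF Atrx stood at 455, 406 and 371 CPM in ESCs and at 301, 264 and 328 CPM in EpiLCs. EpiLC libraries were lower throughout, without overlap. For Atrx the log2 change was -0.29 ± 0.07 in total RNA (adjusted p = 0.000524) and -0.44 ± 0.09 in RPF (adjusted p = 8.98e-05).

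**Figure D2:**
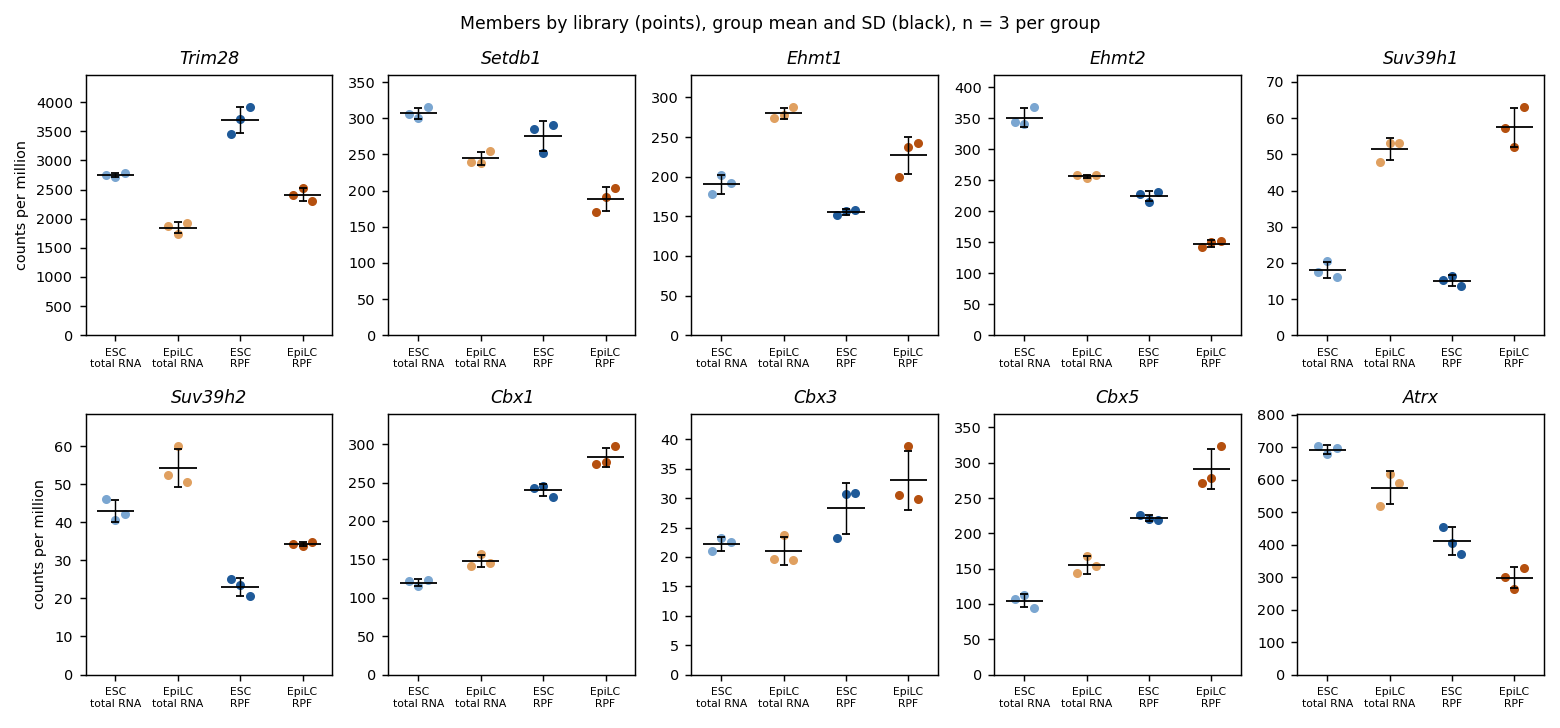
Each panel is a gene, with CPM on the y axis from 0 and the 4 groups of 3 libraries on the x axis; points are libraries, black lines group means and bars the SD. ESC and EpiLC points separate within each assay in every panel except that of Cbx3.

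**Figure D3:**
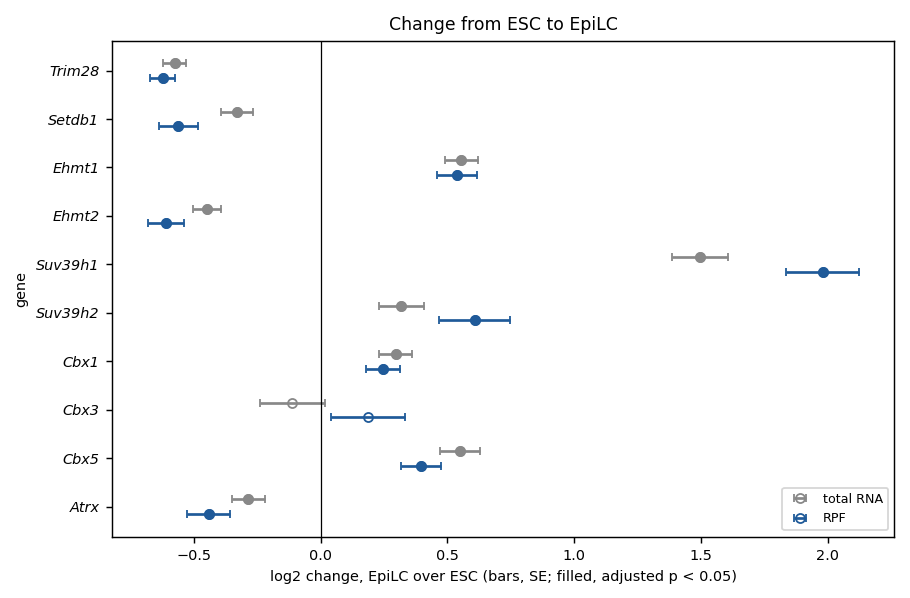
The log2 change from ESC to EpiLC (x axis) is drawn for each gene (y axis) in total RNA (grey) and RPF (blue), with bars for the SE and filled points at an adjusted p below 0.05. Suv39h1 lies farthest to the right at 1.497 and 1.98, and the open points are those of Cbx3.

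Levels were compared between genes per counted length, as CPM per kilobase of counted sequence. In ESC RPF the order ran from Trim28 (1500 ± 93.0, SD, n = 3) through Cbx1 (431 ± 14.01), Cbx5 (418 ± 7.21), Setdb1 (71.0 ± 5.37), Ehmt2 (59.9 ± 2.24), Cbx3 (55.7 ± 8.63), Atrx (55.2 ± 5.68), Ehmt1 (40.4 ± 0.949) and Suv39h2 (16.5 ± 1.62) to Suv39h1 (12.3 ± 1.16). Of the 9 neighbours in that order, 6 did not overlap between libraries, and Cbx1 with Cbx5, Ehmt2 with Cbx3 and Cbx3 with Atrx did. Trim28 was above 99.7% of tested genes, and Suv39h1 above 39.5%.

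In EpiLC RPF the top remained Trim28 (980.3 ± 44.4), now followed by Cbx5 (548 ± 52.7) and Cbx1 (508 ± 22.5). Below these, Cbx3 (65.2 ± 9.84), Ehmt1 (59.0 ± 6.15), Setdb1 (48.6 ± 4.36), Suv39h1 (46.7 ± 4.46), Atrx (39.9 ± 4.32) and Ehmt2 (39.4 ± 1.42) each overlapped with the next. Suv39h2 (24.7 ± 0.387) was last and apart. Suv39h1 had thus moved from the last place in ESCs, where it did not overlap with any other member, into the middle group, above 71.0% of tested genes.

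In total RNA the same 3 genes led, with Trim28 at 1119.7 ± 14.8 in ESCs and 749 ± 37.7 in EpiLCs. Suv39h1 was again the lowest member in ESCs, at 14.7 ± 1.83, and in EpiLCs it lay at 41.8 ± 2.47 beside Cbx3 (41.3 ± 4.70) and Suv39h2 (39.1 ± 3.56), with overlapping ranges. Atrx and Ehmt2 overlapped in ESC total RNA, at 93.0 ± 1.78 and 93.6 ± 3.97.

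The place of Cbx3 in these orders depends on the length by which it is divided. Divided by the bases at which a 32-nt read has no exact copy, an alternative chosen after seeing the data, Cbx3 stood at 448 ± 69.4 in ESC RPF, where Cbx1 stood at 455 ± 14.8 and Cbx5 at 435 ± 7.50. On that scale Cbx3 made 33.4% ± 3.90 of the summed level of the HP1 genes in ESC RPF, and on the deposited lengths 6.17% ± 0.987 (SD, n = 3). In total RNA its share on that scale was 44.9% ± 1.65 in ESCs and 36.2% ± 1.30 in EpiLCs. These values hold for 32 nt alone, the longest footprint and the shortest total RNA read kept. The uncopied share of Cbx3 was 10.1% at 26 nt, 12.4% at 32 nt and 19.5% at 50 nt. The level of Cbx3 thus moves with the length chosen, and its shares in RPF and total RNA cannot be compared on that scale.

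Ratios between members of one library do not depend on library scaling. The Ehmt2 to Ehmt1 ratio, in counts per counted base, was 1.55, 1.41 and 1.497 in ESC RPF and 0.727, 0.646 and 0.640 in EpiLC RPF. The more abundant partner therefore differed between the cell types in RPF. In total RNA the ratio was 1.98, 1.73 and 1.97 in ESCs and 0.967, 0.938 and 0.919 in EpiLCs, a fall by 2.01-fold.

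The Suv39h2 to Suv39h1 ratio was 1.44, 1.27 and 1.34 in ESC RPF and 0.529, 0.575 and 0.490 in EpiLC RPF, so that Suv39h2 exceeded Suv39h1 in each ESC library and lay below it in each EpiLC library. In total RNA it was 2.35, 1.75 and 2.30 in ESCs and 0.972, 0.998 and 0.843 in EpiLCs. On the log2 scale these ratios fell by 1.34 in RPF and by 1.18 in total RNA.

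Cbx5 and Cbx1 stayed close to parity, with a mean ratio of 0.970 in ESC RPF and 1.08 in EpiLC RPF, and the libraries did not overlap. In total RNA the mean ratio was 0.917 and 1.10, likewise without overlap. The Cbx1 to Cbx3 ratio overlapped between cell types in RPF, with means of 7.79 and 7.84 on deposited lengths, and did not in total RNA, with means of 4.91 and 6.45. Cbx5 to Cbx3 also overlapped in RPF and rose 1.58-fold in total RNA without overlap.

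The Setdb1 to Trim28 ratio was 0.0473 in ESC RPF and 0.0495 in EpiLC RPF with overlap, and 0.0706 and 0.0840 in total RNA without. Of 12 tests of 6 ratios in 2 assays, 9 gave an exact two-sided permutation p of 0.10, the smallest that 3 libraries against 3 allow. Adjusted over the 12, that is 0.133, so this test could not bring a ratio past 0.05 with 3 libraries a group. The other 3, all in RPF, gave exact permutation p-values of 0.6 to 1.

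**Figure D4:**
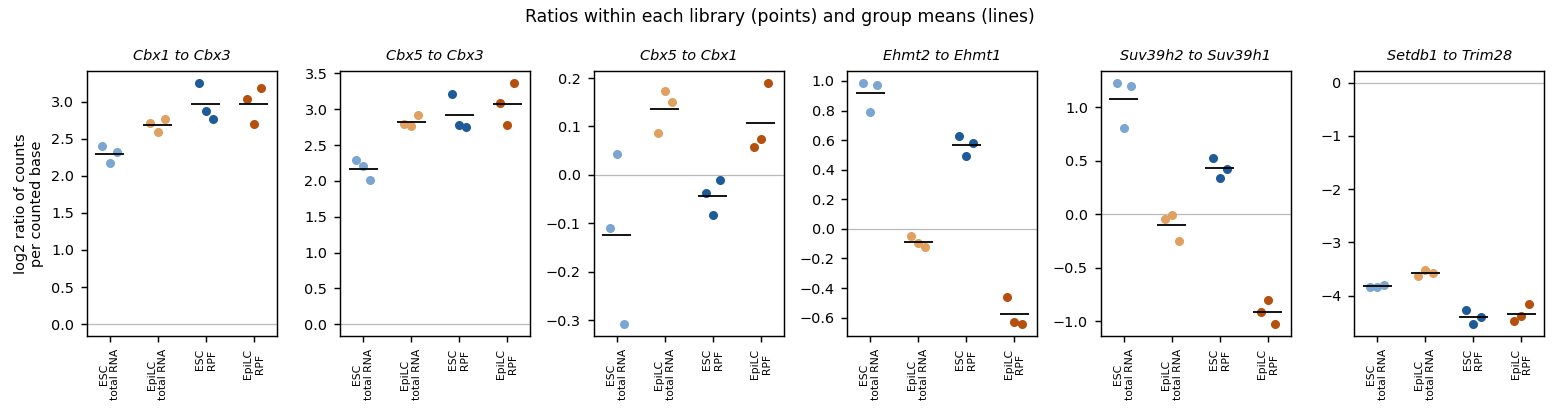
Each panel shows a log2 ratio of counts per counted base (y axis) in the 4 groups (x axis), with points for libraries, black lines for means and a grey line at equality. Ehmt2 to Ehmt1 and Suv39h2 to Suv39h1 lie above the grey line in ESCs and below it in EpiLCs in both assays.

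TE, as log2 RPF over total RNA after scaling each library, was above 0 for the HP1 genes and Trim28 and below 0 for Atrx and for all writers but Suv39h1, whose value did not pass. In ESCs the log2 TE of Cbx5 was 1.08 ± 0.08 (SE), of Cbx1 1.00 ± 0.06, of Trim28 0.42 ± 0.04 and of Cbx3 0.34 ± 0.13, and these 4 were above 0 (adjusted p of 6.80e-12, 7.44e-13, 4.43e-09 and 0.0207). Suv39h2 at -0.93 ± 0.11, Atrx at -0.76 ± 0.07, Ehmt2 at -0.64 ± 0.06, Ehmt1 at -0.29 ± 0.07 and Setdb1 at -0.15 ± 0.06 were below 0. For Setdb1 the adjusted p was 0.0463, and the call was lost with edgeR (0.0667), DESeq2 (0.192), limma-trend (0.0673), DESeq2 size factors (0.151), the correction for GC content (0.274, and 0.212 with the replicate block) and on leaving out ESC RPF replicate 1 or 2 or any ESC total RNA or EpiLC RPF library (0.0520 to 0.396). The call of Cbx3 was lost with limma-trend (0.0531), total counts (0.0650), every gene with a count kept (0.0559), without ESC RPF replicate 3 (0.158) and without ESC total RNA replicate 1 (0.0793). Over all tested genes 33.0% were above 0 and 34.5% below. Cbx5 alone also passed a limit of 1 on the log2 scale, where 7.93% of genes were above it and 13.5% below -1.

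Cbx5 was higher in TE than 93.4% of tested genes in ESCs and Cbx1 than 91.8%, whereas Suv39h2 was higher than 15.98% and Atrx than 20.4%. TE fell with counted length across genes, with a Spearman's rho of -0.41 in ESCs over 11750 genes, given as a description since genes are not replicates and share libraries. The 516 genes with 500 to 600 counted bases, a range that holds Cbx1, Cbx3 and Cbx5, had a median log2 TE of 0.48 in ESCs and 0.49 in EpiLCs. Cbx1 and Cbx5 were above that median in both cell types. No such median was taken for genes near the 7451 counted bases of Atrx, so its low place is against all tested genes only. Footprints and total RNA reads differed in length, so that the share of Cbx3 reads that can be placed also differed between the assays, and its part in the TE of Cbx3 was not tested.

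In EpiLCs the same 4 genes were above 0 and the same 5 below. Cbx1 stood at 0.95 ± 0.07, Cbx5 at 0.93 ± 0.08, Cbx3 at 0.64 ± 0.15 and Trim28 at 0.38 ± 0.05. Atrx was lowest at -0.92 ± 0.08, then Ehmt2 at -0.80 ± 0.07, Suv39h2 at -0.64 ± 0.12, Setdb1 at -0.38 ± 0.08 and Ehmt1 at -0.31 ± 0.07. Over all genes 31.3% were above 0 and 33.0% below, and past the limit of 1 there was no member, with 9.39% of genes above and 14.4% below. TE levels moved with a correction for the GC content of the counted sequence, which was 40.9% in Atrx, 42.4% in Cbx5 and 43.8% in Cbx3, where the median of tested genes was 53.0%. With it the log2 TE of Atrx was -0.20 in ESCs and -0.18 in EpiLCs, still below 0 (adjusted p of 0.00112 and 0.0116) but no longer lowest in EpiLCs, where Ehmt2 stood at -0.91. Cbx3 then stood at 0.71 and 1.12, and Cbx5 at 1.55 and 1.54. The value of Ehmt1 in EpiLCs was -0.19 without EpiLC RPF replicate 1 (adjusted p = 0.0372). Suv39h1 did not pass in either cell type, at -0.28 ± 0.14 in ESCs (adjusted p = 0.0868) and 0.20 ± 0.11 in EpiLCs (adjusted p = 0.105).

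**Figure D5:**
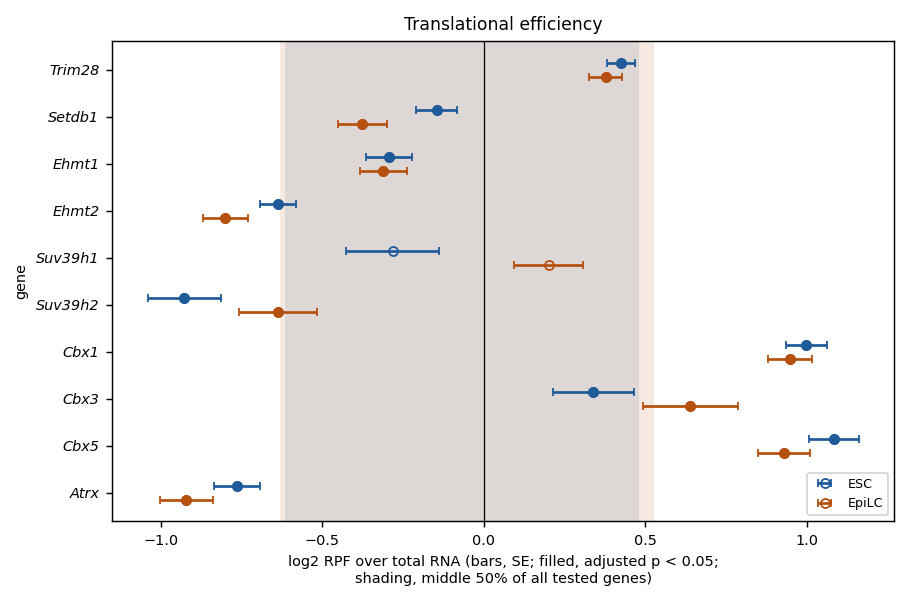
The log2 ratio of RPF to total RNA (x axis) is drawn for each gene (y axis) in ESCs (blue) and EpiLCs (orange), with bars for the SE, filled points at an adjusted p below 0.05 and shading over the middle 50% of tested genes in each cell type. Cbx1 and Cbx5 lie to the right of the shading in both cell types, and Atrx, Ehmt2 and Suv39h2 to its left. Suv39h2 is only just outside it in EpiLCs, and Cbx3 lies to its right in EpiLCs alone.

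The change of TE from ESC to EpiLC, tested as the interaction of assay and cell type, passed for 0 of 10 members with limma, and with edgeR and DESeq2, and for 1.20% of all tested genes. The unadjusted limma p was 0.0129 for Suv39h1 and 0.0283 for Setdb1, and above 0.05 for every other member. How many of all tested genes had an unadjusted p below 0.05 is not given here. The largest log2 TE change was that of Suv39h1, 0.48 ± 0.18 (adjusted p = 0.205), followed by Cbx3 at 0.30 ± 0.19 and Suv39h2 at 0.29 ± 0.17. The lowest was that of Setdb1, -0.23 ± 0.10 (adjusted p = 0.287). Errors ranged from 0.07 (Trim28) to 0.19 (Cbx3) on the log2 scale.

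The 3 genes whose log2 CPM over the 12 libraries was most like that of Suv39h1 were Ptbp2, a neuronal splicing regulator, Focad and Efr3b. Pearson's r was 0.998, 0.997 and 0.993, as a description over libraries that fall into 2 cell types and 2 assays. Their log2 RPF changes were 2.51 ± 0.12, 1.33 ± 0.10 and 2.31 ± 0.20, where that of Suv39h1 was 1.98 ± 0.14. Ptbp2 also passed the test of TE change, at 0.67 ± 0.16 (adjusted p = 0.0361).

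Beyond the members, 53 genes of the same pathway were listed in 6 groups, and 50 could be tested. In RPF 14 rose and 21 fell, with a median log2 change of -0.09, where 31.1% of all tested genes rose and 28.7% fell. In total RNA 18 rose and 17 fell, with a median of 0.04, where 34.6% and 30.7% of all genes did. Of the other H3K9 methyltransferases, all 3 tested of 4 fell in both assays. Their log2 RPF changes were -1.14 ± 0.23 for Setdb2, -0.50 ± 0.08 for Prdm2 and -3.01 ± 0.70 for Prdm16. The first 2 were named after their values were seen. Prdm16 was near the floor, at a mean of 6.33 CPM in ESC RPF and 1.74 CPM in EpiLC RPF. Its lowest EpiLC RPF library held 0 CPM. Of 10 tested H3K9 demethylases, 4 rose and 5 fell in RPF, with the largest rise in Phf2 (1.03 ± 0.19) and the largest fall in Kdm3a (-1.46 ± 0.10), which removes mono- and dimethylation.

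Among 11 tested partners of SETDB1 and TRIM28 and of the HUSH silencing complex, 3 rose and 2 fell in RPF. The HUSH subunits Pphln1 and Fam208a moved in opposite directions, by 1.89 ± 0.12 and -1.25 ± 0.11 on the log2 scale. Of the 4 partners of G9a and GLP 2 rose and 1 fell, among them Zfp644 (0.76 ± 0.10) and the chromodomain gene Cdyl2 (-3.58 ± 0.24).

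Of 9 HP1 partners 1 rose in RPF, the lamin B receptor gene Lbr (0.41 ± 0.05), and 5 fell, most of all Uhrf1 (-0.95 ± 0.05), which reads H3K9 methylation and guides maintenance of DNA methylation. Adnp, whose product binds HP1 proteins, was the only one of the 50 past the threshold for TE change, at -0.40 ± 0.10 (adjusted p = 0.0442), a call that was kept on leaving out 3 of the 12 libraries, 1 at a time, and lost on leaving out any other. Its RPF was 191, 174 and 175 CPM in ESCs and 125, 117 and 137 CPM in EpiLCs. In total RNA Adnp stood at 301, 285 and 308 CPM in ESCs and at 265, 289 and 286 CPM in EpiLCs, with overlap.

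Of 13 genes of H3.3 deposition and silencing ATPases, the group nearest to ATRX, 4 rose and 5 fell in RPF. Smchd1, which acts in silencing of the inactive X chromosome, rose by 0.86 ± 0.07 on the log2 scale, and the histone chaperone gene Asf1b fell by 1.01 with an SE of 0.15. Daxx, the partner of ATRX, had a log2 RPF change of -0.52 ± 0.11 (adjusted p = 0.000143), beside the -0.44 ± 0.09 of Atrx. This gene was singled out after its values were seen.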

How the data were processed

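Libraries of RPF and of total RNA, 3 per cell type, were grouped by their titles. Raw gene counts were deposited by the authors. Per the file headers, the labels and the study's methods, adapters were trimmed with cutadapt 1.14 (RPF inserts of 26 to 32 nt, total RNA of at least 32 nt), uniquely mapped reads were kept with STAR 2.5.3a on mm10 and Gencode M14, and 5′ read ends were counted on the sense strand with featureCounts 1.5.3 in coding sequence without its first 45 nt. The deposited table also gives the counted length.

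Here, genes with at least 3 CPM in at least 3 libraries were kept. Counts were scaled with TMM factors (edgeR 4.0.16) and fitted with voom and limma 3.58.1 in R 4.3.3, as 4 groups over 12 libraries without a block, which gave the mRNA, RPF and TE changes and the TE levels. The study's methods name limma but not voom or TMM. P-values were adjusted by Benjamini-Hochberg over 11750 genes. The alternatives used edgeR's quasi-likelihood test, DESeq2 1.42.0, limma-trend, other scalings, filters and a GC correction, replicate blocks, and each library left out. Copies were counted as exact matches of windows of 26, 32 and 50 nt in Gencode M21 transcripts on either strand, which leaves out copies outside annotated transcripts and inexact ones. Scripts were tested on simulated data.

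Over the 12 pairs of libraries of one group chi-square divided by its degrees of freedom was 2.48 to 7.62, and each pair thus differed by more than sampling noise. The study calls the total RNA matched to the footprints, but the labels do not say that a number ties 2 libraries. Deviations of same-numbered libraries from their group means correlated by -0.18 to 0.16, which cannot show that no pairing exists. The numbers were taken as names, and fits that use them as a block were alternatives. Intervals and errors do not account for PCR duplicates, whose treatment is not given in the sources used here.

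The members and lists were chosen with earlier results of these data known. Genes named outside the members were, by rule, the largest rise and fall in RPF of each list among those past the threshold, listed genes past it for TE change, and the 3 genes most like the member with the largest RPF change. Marker genes were named too, and Setdb2, Prdm2 and Daxx after their values were seen.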

Additional observations from a re-analysis of the deposited data

Results flagged for a closer look

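The changes of RPF and total RNA differed past the threshold for a pair of the genes named, both outside the 10 members, by the limma test of the interaction of assay and cell type. For Adnp the log2 TE change was -0.40 ± 0.10 (adjusted p = 0.0442), with RPF lower in each of the 3 EpiLC libraries than in any ESC library and total RNA overlapping. Under 23 alternatives it ranged from -0.47 to -0.31 and passed in 7, with adjusted p-values from 0.0137 to 0.125, and with 1 library left out it passed in 3 of 12 (without ESC RPF replicate 3, EpiLC RPF replicate 3 or EpiLC total RNA replicate 1) and not without any other library. For Ptbp2 the log2 TE change was 0.67 ± 0.16 (adjusted p = 0.0361), with a log2 change of 1.84 ± 0.10 in total RNA and 2.51 ± 0.12 in RPF. Ptbp2 had been picked for its likeness over both assays to Suv39h1, the member with the largest TE change. Its calls under the alternatives are not given here. No member passed this test of TE change, and groups of 3 libraries are too small to single out a library for any of them.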

How the results depend on the processing

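For mRNA and RPF, 5 members higher and 4 lower were called under every other test, scaling, filter and correction run. With 1 library left out at a time, the RPF call of Cbx1 was lost without EpiLC RPF replicate 3 and no other call of these changes was. A limit of 1 on the log2 scale left 1 member higher and 0 lower for mRNA, for RPF and for TE in ESCs, and 0 and 0 for TE in EpiLCs. With the replicate block the counts were again 5 and 4 for mRNA and RPF and 0 for TE change, and the block changed no call of a member. A replicate block that tied each RPF library to the total RNA library with its number gave 101 rises and 102 falls in TE over all genes and changed no call of a member either. TE change passed for 0 members under all 23 alternatives, with a smallest adjusted p of 0.162 to 0.407. Values near 0 turned sign without passing: Ehmt1 to 0.00591 (DESeq2), 0.0116 (total counts) and 0.00492 (at least 10 counts), and with the GC correction Cbx1 to 0.0162 (0.0155 with the block) and Atrx to 0.0252 (0.0261). With 1 library left out, the TE change ran from -0.102 to 0.0108 for Trim28 and from -0.0818 to 0.0761 for Ehmt1, and the log2 ratio change in RPF from -0.0956 to 0.155 for Cbx1 to Cbx3 and from -0.0272 to 0.134 for Setdb1 to Trim28. Near the threshold in TE level, Setdb1 and Cbx3 in ESCs lost their calls under some settings (Setdb1 without ESC RPF replicate 2, for example, at -0.07 with an adjusted p of 0.396, and Cbx3 without ESC RPF replicate 3 at 0.24 with 0.158), and Suv39h1 gained one in ESCs with total counts (-0.36, adjusted p = 0.0331) and in EpiLCs with DESeq2 size factors (0.26, adjusted p = 0.0398) and without EpiLC RPF replicate 2 (0.27, adjusted p = 0.0425). Without TMM factors 84 genes rose and 51 fell in TE, and with the GC correction 79 and 53, where 67 and 74 did in the main result; DESeq2 called 145 and 140 and the replicate block 128 and 133. Depth limits Cbx3, Suv39h1 and Suv39h2 most, with as few as 102, 77 and 89 reads in a library.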
